A study of Mus musculus with 11 samples.

Results

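Fibroblasts of unwounded back skin were compared between activin-overexpressing (Act) mice and wild-type (WT) littermates. Of the 47643 gene symbols in the table, the comparison held the 11575 genes that reached 1 RPKM (reads per kilobase of exon, scaled to the mapped reads of the library) in at least 2 of the 6 libraries of normal skin (NS). The 6 NS libraries were 3 of WT NS and 3 of Act NS, out of 11 libraries in the series, which also held 3 WT and 2 Act libraries of wounds at day 5 (5dw). Act mice carry human INHBA under the keratin 14 promoter, which is active in keratinocytes, so the fibroblasts themselves are not the cells that the promoter targets. Both genotypes had a mixed CD-1 and C57BL/6 background and were 9 to 12 weeks old. NS received no wound and no other treatment, and its underlying fat was removed before digestion. Live cells with CD140a, the product of Pdgfra, and without CD45, CD11b and F4/80 were sorted (the labels also name CD3 as a negative marker), and the RNA of 3 mice was pooled for each library.

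Activin A is a secreted dimer of 2 chains encoded by Inhba. It binds the type II receptors encoded by Acvr2a and Acvr2b, which recruit the type I receptor encoded by Acvr1b, and the signal reaches the nucleus through SMAD2 and SMAD3 with SMAD4. Follistatin, encoded by Fst, and the related protein encoded by Fstl3 bind the ligand outside the cell. In skin, activin is best known for its induction after injury and for its effects on granulation tissue and scarring. The comparison in NS asks what a raised supply of activin from the epidermis does to dermal fibroblasts before any wound.

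The sorted cells carried the transcripts of fibroblasts. Pdgfra was between 49.8 and 65.3 RPKM in the 6 NS libraries, and Col1a1, which encodes a chain of type I collagen, between 2092 and 4709. Ptprc, which encodes CD45, did not exceed 0.0498 RPKM, and 9 of 10 pan-immune markers stayed below 1 RPKM in every NS library. Cd3e, which encodes a chain of the T cell receptor complex, was 3.31, 17.6 and 7.64 RPKM in WT NS and 2.94, 33.9 and 9.34 in Act NS, while 8 of 10 T cell markers stayed below 1 RPKM. Keratinocyte transcripts were abundant in both genotypes. The summed RPKM of 14 suprabasal markers was 676, 1508 and 1636 in WT NS and 836, 2366 and 3670 in Act NS, and Krt10, a keratin of differentiating epidermis, led them with 297 to 1685 RPKM. None of 57 keratin-associated protein genes reached 1 RPKM. In units of 1000000 reads, the mapped totals implied by the steps of the RPKM values were 25.23, 18.65 and 29.72 in WT NS and 23.93, 24.09 and 22.97 in Act NS.

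Act NS replicate 1 stood apart from the other 5 NS libraries. Its RPKM values summed to 225686 against 270822 to 278066. It had 1348 RPKM of Lars2 against 45.1 to 74.1, and 602 RPKM of the 5.8S ribosomal RNA gene n-R5-8s1 against 7.61 to 20.9. These genes were singled out after their values were seen. On the first principal component of the NS libraries, which held 42.8% of the variance, Act NS replicate 1 lay at -37.5 and WT NS replicate 1 at -19.5, while the other 4 lay between 7.50 and 19.0. Libraries of the same replicate number deviated together from their group means, with correlations across genes of 0.567, 0.43 and 0.342 for numbers 1, 2 and 3. Between unlike numbers the correlations ran from -0.481 to 0.198. The fit with the replicate number as a term is therefore given beside the unpaired fit where it changes a call.

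Among the 11575 genes, Inhba rose and Serpina3b fell in Act NS at an adjusted p under 0.05, which is 0.0173% of the genes tested (limma on log2(RPKM + 0.5), Benjamini-Hochberg adjustment). With the replicate number as a term in a fit of the NS libraries alone, 10 genes passed, or 0.0864%, of which 3 were higher and 7 lower in Act NS. Of the 7, Mrgprg, Tmem45b, Gm13178 and Gm6166 met the minimum of 1 RPKM through WT NS. The count of lower genes thus includes calls that this minimum helped to decide. Serpina3b passed in both fits, and Inhba did not pass in the paired fit of the NS libraries (limma adjusted p = 0.0768). A fit of the NS libraries alone without pairs called 0 genes, with limma adjusted p of 0.0875 for Inhba and 0.0907 for Serpina3b. With the replicate number as a term over all 11 libraries, the genes that passed were Inhba (limma adjusted p = 0.0164), Serpina3b (0.00321) and Serpina3j (0.0178). The other 8 of the 10 genes did not pass there, with limma adjusted p from 0.0562 to 0.507. The paired fit of the NS libraries had 2 residual degrees of freedom. Log2 fold changes (log2FC) are Act NS minus WT NS throughout, on the log2(RPKM + 0.5) scale.

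**Figure D1:**
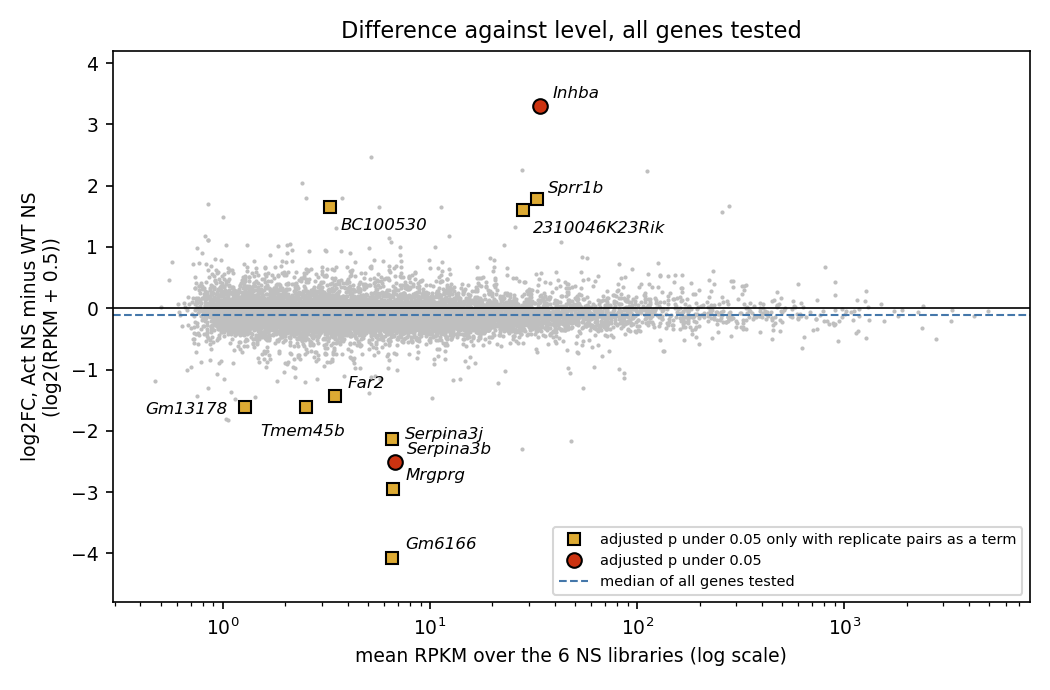
The log2FC between Act NS and WT NS (vertical axis) is plotted against the mean RPKM over the 6 NS libraries (horizontal axis, log scale) for the 11575 genes tested. Circles mark Inhba and Serpina3b, and the dashed line is the median of all genes at -0.11. Squares mark the 9 genes that passed in the paired fit of the NS libraries but not in the unpaired fit over 11 libraries. Of these, Mrgprg, Tmem45b, Gm13178 and Gm6166 met the minimum RPKM through WT NS.

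Inhba lies on chromosome 13 (GRCm38, 16011851 to 16031621, plus strand). Its RPKM was 6.75, 6.93 and 3.4 in WT NS and 36.3, 59.1 and 91.1 in Act NS. Every Act library was above every WT library. By limma, the level differed 9.86-fold (log2FC 3.30 with a standard error of 0.36, adjusted p = 0.0123). Without Act NS replicate 1 the log2FC was 3.64 (adjusted p = 0.00717), but the gene missed the threshold when the left-out library was the second of WT NS (0.0669), the third of WT NS (0.0773) or the second of Act NS (0.0656). Between libraries of the same number the ratio was 5.38, 8.53 and 26.8. In 5dw, where the labels give the same genotypes, Inhba was 20.6, 15.8 and 24.0 RPKM in WT and 26.2 and 50.2 in Act, so Act NS replicates 2 and 3 were above every 5dw library. Reads of the human transgene that align to the mouse gene and reads of mouse Inhba itself cannot be told apart in these values.

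Krt14, the gene whose promoter drives the transgene, was 192, 264 and 259 RPKM in WT NS and 194, 344 and 493 in Act NS, which by limma gave an adjusted p of 0.832 (log2FC 0.44 with a standard error of 0.63). The order of the Act NS libraries was the same for both genes, with 36.3, 59.1 and 91.1 RPKM of Inhba beside 194, 344 and 493 of Krt14. Within Act NS, Inhba thus rose nearly in proportion to Krt14. In replicate pair 1 the Krt14 values differed by a ratio of 1.01 while the Inhba values differed by 5.38. In pair 3 the ratios were 1.90 and 26.8. Among WT 5dw libraries, Krt14 was 57.8, 115 and 528 RPKM, and the library with 528 had 24.0 RPKM of Inhba. WT mice carry no transgene, so the pair ratios and the WT 5dw values cannot show how much transgene RNA came from keratinocytes. How much of the Inhba difference came from keratinocyte RNA was not tested.

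**Figure D2:**
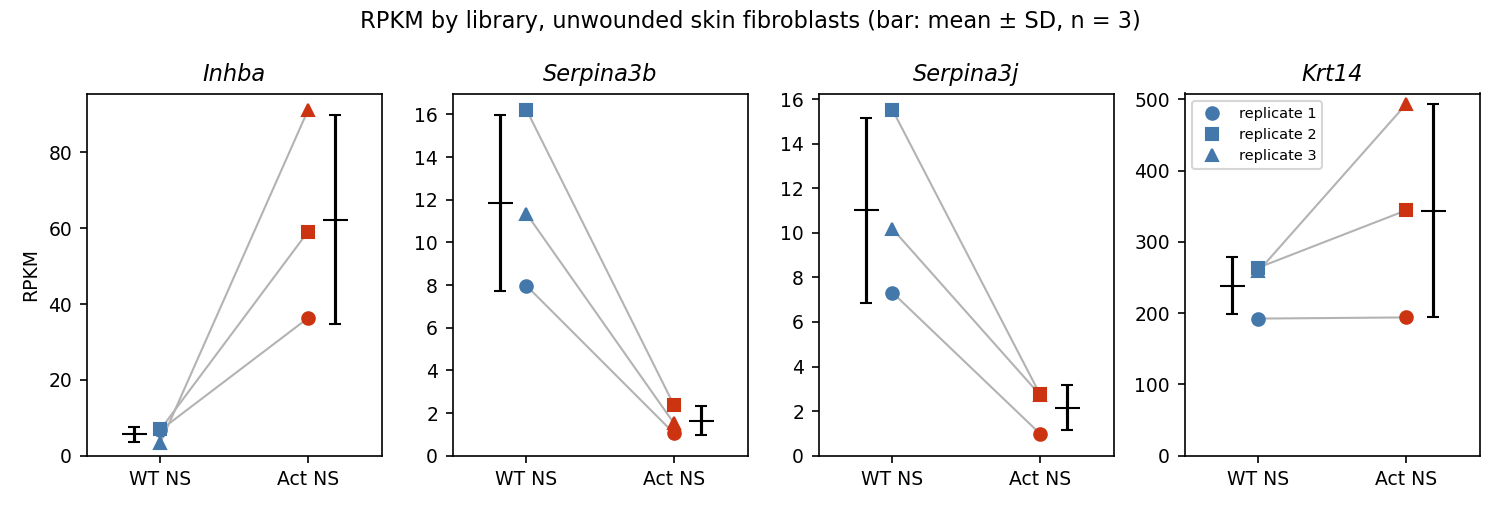
RPKM of Inhba, Serpina3b, Serpina3j and Krt14 in each NS library, with lines between libraries of the same replicate number and bars for mean ± SD (n = 3). The Act NS libraries lie above WT NS for Inhba (36.3 to 91.1 against 3.4 to 6.93) and below it for both serpin genes, and the groups overlap for Krt14.

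Serpina3b and Serpina3j belong to the A3 clade of serpins, a cluster of serine protease inhibitor genes on mouse chromosome 12 that corresponds to the single human gene SERPINA3. Because such genes arose by duplication, their reads can be shared. The first 120 coding bases of both, read from the annotated transcripts 5′ to 3′, are given with capitals at the positions where they differ, because these decide how far their reads can be told apart. The first stretch is chr12:104130462-104130581 and the second chr12:104314570-104314689 (GRCm38, plus strand).
Serpina3b: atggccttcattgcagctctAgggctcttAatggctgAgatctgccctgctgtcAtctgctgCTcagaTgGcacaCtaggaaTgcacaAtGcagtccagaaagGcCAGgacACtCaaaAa
Serpina3j: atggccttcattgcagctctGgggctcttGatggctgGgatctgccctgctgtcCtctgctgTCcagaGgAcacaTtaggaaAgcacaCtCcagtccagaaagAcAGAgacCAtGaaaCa
They differed at 20 of these 120 bases and at 223 of 1260 coding bases. Of the 31-base words in Serpina3b transcripts, 3.4% also occurred in Serpina3j and 8.0% in any other gene.

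Serpina3b (chromosome 12, 104127996 to 104139545) was 7.97, 16.2 and 11.3 RPKM in WT NS and 1.05, 2.37 and 1.51 in Act NS. These values stood for about 416, 626 and 698 reads in WT NS and 52, 118 and 72 in Act NS, so no Act library came near a WT library. By limma, the level was 5.72-fold lower (log2FC -2.52 with a standard error of 0.26, adjusted p = 0.0118), and without Act NS replicate 1 the log2FC was -2.31 (adjusted p = 0.0141). It missed the threshold without WT NS replicate 2 (limma adjusted p = 0.0594) or WT NS replicate 3 (0.0773). Serpina3b also missed it in the unpaired fit of the NS libraries alone (limma adjusted p = 0.0907). The 3 pair ratios were 0.13, 0.15 and 0.13, and the paired fit gave a standard error of 0.11 (limma adjusted p = 0.00114). It was at most 0.0747 RPKM in every 5dw library of either genotype.

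Serpina3j (chromosome 12, 104314553 to 104320725) was 7.32, 15.5 and 10.2 RPKM in WT NS and 0.989, 2.75 and 2.73 in Act NS. Its groups did not overlap either, and WT NS replicate 2 was the highest library for both genes. The log2FC was -2.14 (standard error 0.31), with a limma adjusted p of 0.0652 unpaired and 0.0124 paired. It too was nearly absent from 5dw, with 0.0701 to 0.167 RPKM.

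Of 10 tested members, Serpina3b alone passed unpaired (0.0173% of all genes), and the paired fit added Serpina3j (0.0864% of all genes). Serpina3n, the most abundant member, was 142, 163 and 168 RPKM in WT NS and 186, 146 and 140 in Act NS, a log2FC of -0.01. Serpina3g stood at -0.38, Serpina3c at -0.08, Serpina3i at 0.08, Serpina3h at 0.14 and Serpina3m at 0.50 on the log2 scale, and none of these passed in either fit.

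Of the other genes that fell in the paired fit, Mrgprg (chromosome 7, 143763710 to 143766993) encodes a receptor of the Mas-related family of G protein-coupled receptors. It was 10.9, 20.9 and 4.14 RPKM in WT NS and 0.609, 3.07 and 0.131 in Act NS. The groups did not overlap, but both varied widely, and the log2FC of -2.94 had a standard error of 0.83 unpaired and 0.17 paired. Far2 (chromosome 6, 148047259 to 148182758) encodes a fatty acyl-CoA reductase that makes fatty alcohols for wax lipids. It was 2.87, 6.76 and 6.18 RPKM in WT NS and 0.581, 2.65 and 1.91 in Act NS, again without overlap. Its log2FC was -1.44 (paired standard error 0.14, limma adjusted p = 0.643 unpaired and 0.0301 paired).

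Tmem45b (chromosome 9, 31426196 to 31464462), which encodes a transmembrane protein, was 2.47, 4.81 and 4.71 RPKM in WT NS and 0.399, 1.66 and 0.997 in Act NS, with a log2FC of -1.61. Gm13178 (chromosome 4, 144703191 to 144721404) was 1.55, 2.97 and 2.06 RPKM in WT NS and 0.272, 0.541 and 0.284 in Act NS, with a log2FC of -1.62. Neither gene had overlapping groups. Mrgprg, Tmem45b, Gm13178 and the pseudogene Gm6166 met the minimum of 1 RPKM through WT NS, since 1, 1, 0 and 0 Act NS libraries reached it. A lower level in Act NS was therefore in part set by that minimum, and their RPKM and log2FC are given without a test. Wound libraries, which the paired fit did not use, held little of most of these genes. Serpina3b, Serpina3j, Far2, Tmem45b and Gm13178 did not exceed 0.443 RPKM in any 5dw library, and Mrgprg exceeded that only in WT 5dw replicate 3, at 3.02 RPKM.

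The seventh was Gm6166, a processed pseudogene of Fabp5 on chromosome 9 (57483963 to 57484371). Fabp5 encodes an epidermal fatty acid-binding protein on chromosome 3. The first 60 coding bases of Fabp5 (chr3:10012640-10012699) and the matching stretch of the pseudogene (chr9:57483963-57484022; GRCm38, plus strands) are given to show their likeness, with a capital at the base that differs.
Fabp5: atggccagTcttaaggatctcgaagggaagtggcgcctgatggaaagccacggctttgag
Gm6166: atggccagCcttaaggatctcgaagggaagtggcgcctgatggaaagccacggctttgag
Of the 31-base words of Gm6166, 68.6% also occurred in Fabp5, so the split of reads between both is uncertain. Gm6166 was 7.53, 7.85 and 23.4 RPKM in WT NS and 0, 0.124 and 0.586 in Act NS, with a log2FC of -4.07. In 5dw it did not follow genotype in this way, with 17.5, 18.7 and 4.93 RPKM in WT and 0.437 and 14.9 in Act. Fabp5 itself was 7.49, 19.9 and 15.6 RPKM in WT NS and 4.48, 17.9 and 19.3 in Act NS, a log2FC of -0.18.

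The genes that rose in the paired fit were Sprr1b, 2310046K23Rik and BC100530. Sprr1b, which encodes a precursor of the cornified envelope, was 4.87, 21.5 and 18.2 RPKM in WT NS and 19.2, 63.8 and 69.5 in Act NS. Its groups overlapped, while the 3 pair ratios were 3.94, 2.97 and 3.82, and the log2FC was 1.78 (limma adjusted p = 0.683 unpaired and 0.0124 paired). 2310046K23Rik, which lies close to Sprr1b on chromosome 3 (92532505 to 92534511 against 92436809 to 92438789), was 5.33, 16.7 and 17.7 RPKM in WT NS and 16.3, 44.0 and 67.6 in Act NS. Its log2FC was 1.60 (limma adjusted p = 0.668 unpaired and 0.0268 paired). BC100530 (chromosome 16, 36359382 to 36367748) encodes a cysteine protease inhibitor of the stefin A family. It was 0.452, 2.51 and 1.06 RPKM in WT NS and 2.22, 8.09 and 5.40 in Act NS, a log2FC of 1.65 (limma adjusted p = 0.688 unpaired and 0.0238 paired), and 51.8% of its 31-base words occurred in other genes. Without Act NS replicate 1 and unpaired, the direction of all 10 genes was the same, with log2FC from -3.83 for Gm6166 to 2.36 for Sprr1b and -0.99 for Far2. Over all alternatives the adjusted p of Serpina3j ran from 0.0106 to 0.57, and those of Far2 and Sprr1b reached 0.999.

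**Figure D3:**
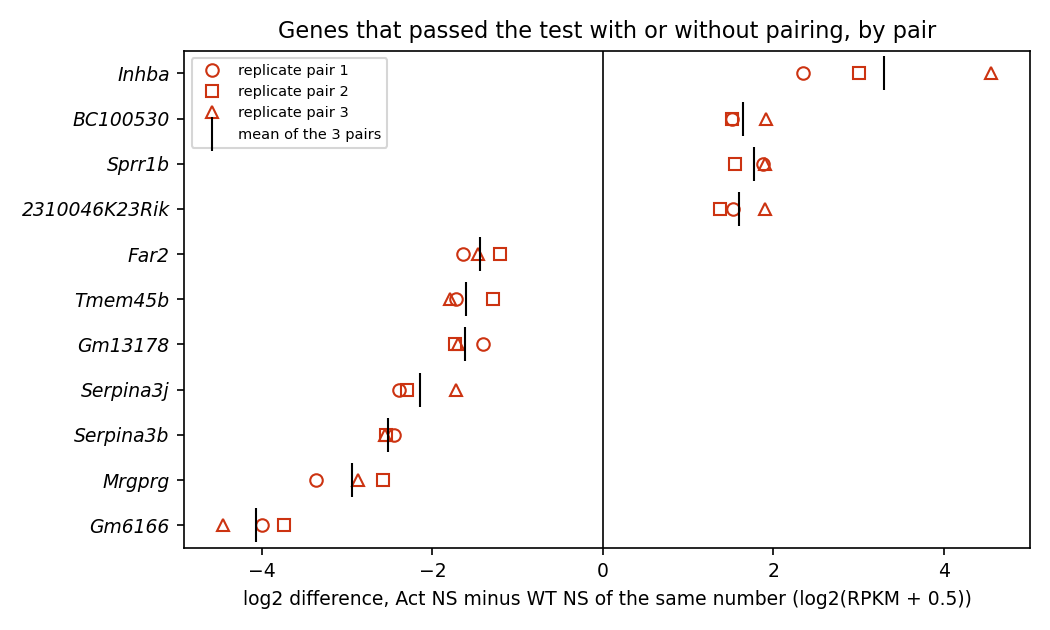
The log2 difference of Act NS minus WT NS for each replicate pair (open symbols) and their mean (vertical bar) is shown for the 11 genes that passed in the unpaired or the paired fit. Of these, Mrgprg, Tmem45b, Gm13178 and Gm6166 met the minimum RPKM through WT NS, which in part set their lower level. The pairs of Serpina3b lie almost on one another near -2.52, whereas those of Inhba run from an RPKM ratio of 5.38 in pair 1 to 26.8 in pair 3.

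Keratinocyte markers varied widely between libraries of the same genotype, and single genes rarely passed in the unpaired or the paired fit. The keratin gene Krt24 passed in neither, but it passed in alternatives given under the dependence on processing. Of 9 tested markers of hyperproliferative epidermis, 9 had a log2FC above 0, with a median of 0.67. None passed unpaired, 1 (Sprr1b) passed paired, beside 0.0864% of all genes, and the range was 0.45 to 2.25. Krt6a, a keratin of wound and hyperthickened epidermis, was 8.35, 11.1 and 6.50 RPKM in WT NS and 22.0, 48.2 and 70.1 in Act NS, without overlap (log2FC 2.25, limma adjusted p = 0.668 unpaired and 0.188 paired). Krt6b, its near copy, was 0.178, 0.819 and 0.559 RPKM in WT NS and 1.15, 5.76 and 5.94 in Act NS, through which alone it met the minimum of 1 RPKM, and 45.9% of the 31-base words of Krt6a occurred in Krt6b. Of 14 suprabasal markers, 14 were above 0 with a median of 0.44, and none passed in either fit. Krt1 was 85.8, 142 and 134 RPKM in WT NS and 171, 402 and 613 in Act NS. Without Act NS replicate 1 these medians were 1.27 and 1.02. Over all 38 tested genes of the keratinocyte lists the median log2FC was 0.41, and it was 1.00 without Act NS replicate 1, -0.0033 without WT NS replicate 1 and -0.05 without Act NS replicate 3, so its size and sign rested on single libraries. The hair follicle and sebaceous list had 3 of 7 tested genes above 0 and a median of -0.08. Its range was -1.83 to 0.50, and 1 member (Far2) passed paired, beside 0.0864% of all genes.

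Basal markers had a median log2FC of 0.10 over 15 genes, 12 of them above 0. Krt15, a keratin of quiescent basal and bulge cells, had the lowest log2FC of its list. It was 79.2, 63.9 and 84.1 RPKM in WT NS and 18.1, 28.8 and 53.2 in Act NS, without overlap, a log2FC of -1.30 (limma adjusted p = 0.56 unpaired and 0.269 paired). The summed basal markers were 759, 998 and 1077 RPKM in WT NS and 607, 1182 and 1798 in Act NS. Whether more keratinocytes or more RNA per keratinocyte stood behind such sums cannot be told apart in bulk samples.

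Directions over all genes were uneven as deposited. The median log2FC of the 11575 genes was -0.11, and 2992 of them lay above 0. At an unadjusted p under 0.05, 92 genes (0.795%) were higher and 717 (6.19%) lower in Act NS. Without Act NS replicate 1 these counts were 384 and 334. After each library was divided by its median ratio to the geometric mean over libraries, the split was 285 (2.46%) higher and 269 (2.32%) lower, and the median was 0.02. The groups did not overlap for 107 genes (0.924%) that were higher and 934 (8.07%) that were lower in Act NS. The paired fit gave 277 (2.39%) higher and 1055 (9.11%) lower, and the paired fit after median-ratio scaling 738 (6.38%) and 396 (3.42%), with 9 genes (0.0778%) past the adjusted threshold, and 9 genes were shared with the 10 of the paired fit as deposited. Small differences of gene lists are therefore given against the median of -0.11.

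Of the pathway of activin itself, none of the receptor, antagonist or SMAD genes passed in either fit. Inhbb, which encodes the chain of activin B, was 6.61, 1.74 and 5.74 RPKM in WT NS and 11.4, 3.10 and 6.22 in Act NS, with overlap. Among 10 tested receptor genes the median log2FC was -0.07. Acvr1b was 4.54, 5.86 and 5.67 RPKM in WT NS and 4.02, 6.34 and 6.19 in Act NS (log2FC 0.02), Acvr2a had a log2FC of -0.11, and Acvr2b did not exceed 0.475 RPKM. The one receptor whose groups did not overlap was Tgfbr2, the type II receptor for TGF-beta. It was 203, 199 and 322 RPKM in WT NS and 152, 152 and 169 in Act NS, a log2FC of -0.58 (limma adjusted p = 0.668), and 8.07% of all genes were lower without overlap.

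Fst was 52.5, 97.1 and 60.6 RPKM in WT NS and 45.0, 121 and 107 in Act NS, and Fstl3 was 11.8, 6.16 and 10.8 against 8.82, 6.28 and 9.47. Both overlapped. The 7 tested SMAD genes had a median log2FC of -0.04. Among ligands of the family, Gdf15, a stress-induced member, was 10.6, 5.12 and 6.27 RPKM in WT NS and 4.2, 1.93 and 3.13 in Act NS, without overlap (log2FC -1.12, limma adjusted p = 0.668 unpaired and 0.0728 paired).

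The 20 genes of the SMAD2/3 response list, all tested, had a median log2FC of 0.07 and 14 lay above 0, after median-ratio scaling 0.21 and 18, and the median was 0.19 without Act NS replicate 1. None passed. At an unadjusted p under 0.05, 1 was higher unpaired, 2 paired and 6 paired after scaling, beside 0.795%, 2.39% and 6.38% of all genes, and none was lower. Ctgf, which encodes a matricellular protein and is a textbook TGF-beta target, had the smallest p, with 21.9, 14.0 and 11.5 RPKM in WT NS and 29.0, 27.8 and 18.3 in Act NS (log2FC 0.67, standard error 0.25, limma adjusted p = 0.675). Pmepa1, a feedback inhibitor of the pathway, was 21.7, 14.2 and 15.0 RPKM against 20.4, 19.3 and 18.8 (log2FC 0.22, standard error 0.15).

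No gene of the collagens or of collagen processing passed in either fit. The 32 tested collagen chains had a median log2FC of 0.07, with 19 above 0 as deposited and 27 after scaling. Col1a1 stood at -0.02 (standard error 0.30), Col1a2 at -0.03 and Col3a1 at 0.03. Col6a5, which encodes a chain of the beaded-filament collagen VI, lay far from the others. It was 7.74, 28.9 and 21.7 RPKM in WT NS and 5.26, 3.35 and 2.81 in Act NS, with log2FC -2.07 and a standard error of 0.39 (limma adjusted p = 0.329 unpaired and 0.281 paired). Its groups did not overlap, and its pair ratios were 0.68, 0.12 and 0.13. Without WT NS replicate 1, and without both NS libraries numbered 1, it passed, with adjusted p over all alternatives between 0.00201 and 0.999.

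The 28 tested genes of collagen processing and cross-linking had a median of -0.13 and the 11 small leucine-rich proteoglycans also -0.13, both close to that of all genes. Aspn, a collagen-binding proteoglycan, was 109, 79.3 and 89.1 RPKM in WT NS and 112, 94.8 and 82.4 in Act NS. Postn, which encodes the matricellular protein periostin, was 294, 302 and 233 RPKM against 233, 251 and 157 (log2FC -0.39). Of 15 genes that the study tied to activin in wounds, 8 had a log2FC above 0 in NS, with a median of 0.03; that list was chosen on libraries of this series.

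Of 13 tested matrix metalloproteinase and TIMP genes, 7 were above 0, with a median of 0.18, and none passed. The medians were 0.12 for hyaluronan and large proteoglycans and -0.18 for BMP ligands, antagonists and Id genes. Mmp27 was 44.3, 41.2 and 33.8 RPKM in WT NS and 30.4, 23.2 and 21.1 in Act NS, without overlap (log2FC -0.67, standard error 0.19). Mmp28 was 1.01, 0.886 and 1.09 RPKM in WT NS and 1.47, 1.30 and 1.78 in Act NS, also without overlap. The contractile genes Acta2 and Tagln, which mark myofibroblasts, stood at -0.07 (standard error 0.33) and 0.05 (standard error 0.31), and 12 tested genes of that list had a median of -0.07.

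**Figure D4:**
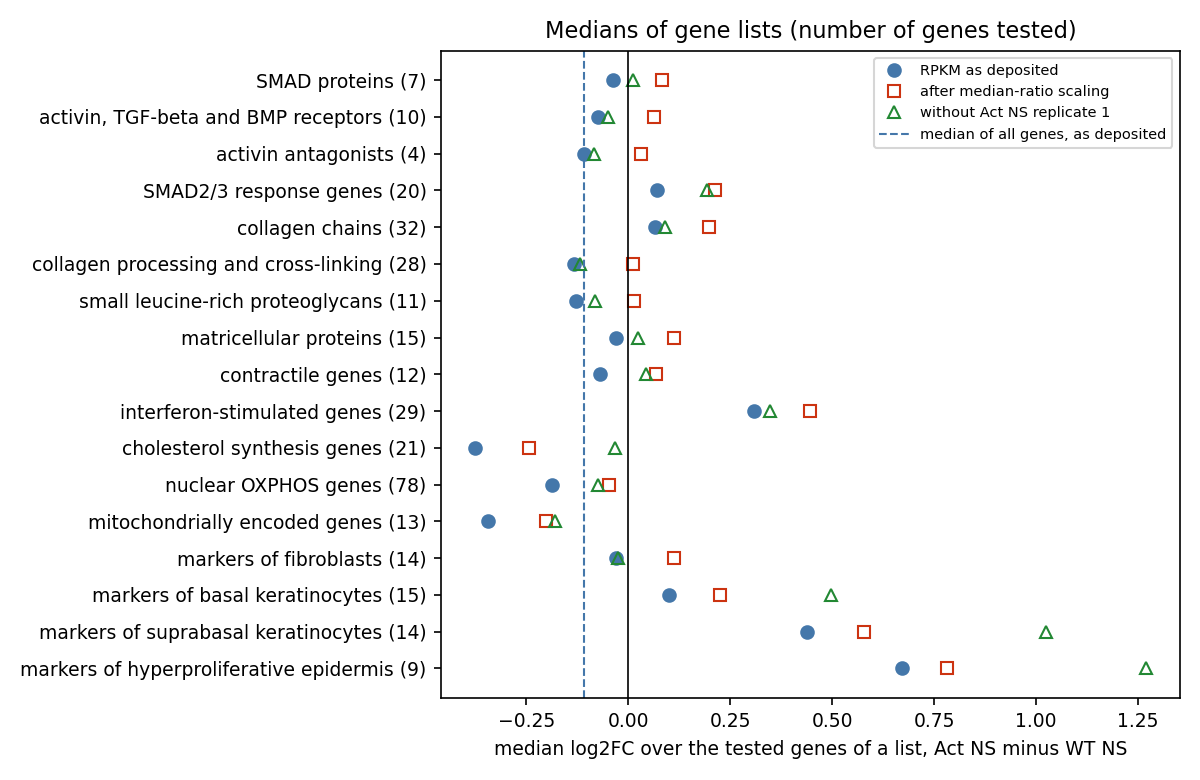
Median log2FC of Act NS minus WT NS over the tested genes of 17 lists, from RPKM as deposited (circles), after median-ratio scaling (squares) and without Act NS replicate 1 (triangles), with the all-gene median of -0.11 as a dashed line. As deposited, the 9 matrix, contractile and signalling lists plotted lie between -0.13 and 0.07, interferon-stimulated genes at 0.31, and markers of hyperproliferative epidermis at 0.67, or 1.27 without Act NS replicate 1.

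Other abundant genes showed separated groups without passing the test. By the smallest p among genes of at least 5 RPKM without overlap, 12 higher genes were taken as a description. Besides Inhba, Krt6a and Krt1 they were Cyp1b1, Rpl10a-ps1, Stfa3, Pard6g, Tns3, Lamc3, Gm12057_2, Fam132a and Gbp10. Cyp1b1, a cytochrome P450 of xenobiotic and steroid metabolism, was 17.7, 19.3 and 17.5 RPKM in WT NS and 31, 32.3 and 23.9 in Act NS, a log2FC of 0.65. Lamc3, which encodes a laminin chain, was 15.4, 12.7 and 10.5 RPKM against 25.3, 17.7 and 19.5. Tns3, a tensin of focal adhesions, was 4.99, 3.99 and 3.63 RPKM against 7.12, 5.54 and 5.42. Stfa3, another stefin, was 0.481, 2.73 and 0.653 RPKM against 3.75, 9.77 and 13.6, and it met the minimum of 1 RPKM through Act NS. The values of Rpl10a-ps1 and Gbp10 are uncertain, since 100.0% and 89.8% of their 31-base words occurred in other genes.

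The 12 lower genes were Serpina3b, Serpina3j, Col6a5, Gm6166, Krt15, Snhg5, Fig4, Daglb, Pxmp4, Mrpl40, Chchd1 and Morf4l1. Daglb, which encodes a diacylglycerol lipase, was 8.27, 10.1 and 7.02 RPKM in WT NS and 3.48, 5.35 and 3.51 in Act NS (log2FC -0.97, limma adjusted p = 0.558 unpaired and 0.107 paired). Fig4, a phosphoinositide phosphatase, was 9.90, 9.05 and 10.5 RPKM against 6.25, 7.24 and 6.19. Snhg5, a host gene of small nucleolar RNAs, was 15.4, 14.5 and 12.9 RPKM against 8.55, 10.5 and 9.33. Mrpl40 and Chchd1, whose products are proteins of the mitochondrial ribosome, had log2FC of -0.66 and -0.61.

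Of 29 tested interferon-stimulated genes, 28 had a log2FC above 0, with a median of 0.31 as deposited and 0.45 after scaling. None passed the adjusted threshold in either fit. Unadjusted p values under 0.05 were found for 1 of them unpaired, 13 paired and 20 paired after scaling, beside 0.795%, 2.39% and 6.38% of all genes. Rsad2, which encodes the antiviral protein viperin, was 2.73, 6.76 and 3.71 RPKM in WT NS and 8.61, 7.34 and 6.39 in Act NS (log2FC 0.77). Ifit3 was 25.9, 50.3 and 38.6 RPKM against 81.1, 91.5 and 38.5 (log2FC 0.83), so that pair 3 had almost equal values. The summed list was 433, 656 and 501 RPKM in WT NS and 656, 906 and 595 in Act NS, which overlapped. In 5dw, 0 of the 29 were above 0 and the median was -0.89. The interaction between genotype and tissue had an unadjusted p under 0.05 for 24 of the 29, beside 373 of all 11575 genes, and for none after adjustment (limma).

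The difference between genotypes was also compared with that in 5dw as an interaction across the same genes. No gene passed (0 of 11575, or 0%), while 373 had an unadjusted p under 0.05 (limma). Inhba had a log2FC of 0.86 and Serpina3b of 0.02 in 5dw, where Serpina3b was at or near 0 in both genotypes. With 3 libraries against 3, an exact permutation test of a single gene cannot go below p = 0.1, so each call rests on the spread shared across genes.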

How the data were processed

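Poly-A RNA of sorted fibroblasts was sequenced as single-end reads after TruSeq library preparation, aligned to GRCm38 and counted in CLC Genomics Workbench by the authors, who deposited RPKM values per gene symbol; edgeR is named in the submitters' processing notes. Strand use and the treatment of multiply mapping reads are not given in the sources used here. The deposited RPKM were not counts, so log2(RPKM + 0.5) was fitted with limma 3.58.1 (trend, R 4.3.3) as 4 group means over 11 libraries, for genes with at least 1 RPKM in 2 of the 6 NS libraries, with Benjamini-Hochberg adjustment and a threshold of 0.05. The smallest steps of the RPKM values, with exon lengths from GENCODE M21, gave 18.65 to 29.72 times 1000000 reads per NS library, and 79.1% to 79.4% of low values came out whole within 0.03 reads. Counts of reads cover counting error only. Replicate numbers were taken from the labels. Same-numbered NS libraries correlated in their deviations at 0.567, 0.43 and 0.342, each over 0.1, so the numbers were treated as pairs. WT NS replicate 2 and Act NS replicate 3 also exceeded 0.1, at 0.198, while the other unlike numbers ran from -0.481 to -0.119. The limit of 0.1 alone thus did not separate pairs from unlike numbers, and it was applied to the same values that were then tested. Each library is a pool of 3 mice (100 ng RNA in NS). Per the study's methods the animals of a pool came from several sorting sessions, so a replicate number is not known to stand for a session. Genes were named if they passed, if they were among the 12 smallest p in either direction without overlap at a mean of 5 RPKM or more, if they were on a list of check genes, or if they had the 2 smallest p of a list. The members, lists and tests were chosen with earlier results of these data known. The fit was also run on simulated data, but the outcome is not given here and no result rests on it. The 19 alternatives tried are described under the dependence on processing. Coordinates are from GENCODE M21 and sequences from its transcripts.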

Additional observations from a re-analysis of the deposited data

Results flagged for a closer look

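Of the genes named here, 4 had genotype differences of opposite direction in NS and 5dw without overlap in either tissue. Over all 11575 genes tested, 83 (0.717%) had such a pattern and 193 (1.67%) had no overlap in the same direction. None of the 4 passed as an interaction after adjustment over all genes. The genotype difference in 5dw minus that in NS was 1.55 for Far2 on the log2 scale (limma adjusted p = 0.999), -1.46 for Rpl10a-ps1 (limma adjusted p = 0.569) and -1.83 for Gbp10 (limma adjusted p = 0.569). For Slpi it was -1.59, given as a value only. Far2 was between 0.167 and 0.231 RPKM in the WT wounds and at 0.253 and 0.269 RPKM in the Act wounds. Slpi, which encodes a secreted protease inhibitor and met the minimum of 1 RPKM through Act NS alone, so that its difference in NS was in part set by that minimum, was 0.806, 0.863 and 0.970 RPKM in WT NS, 1.27, 2.25 and 1.66 in Act NS, and in wounds 10.8 to 16.6 RPKM with WT and 4.33 and 9.29 RPKM with Act. Gbp10 was 6.99, 10.4 and 7.50 RPKM in WT NS, 10.6, 17.4 and 12.5 in Act NS, and in wounds 5.17 to 9.97 RPKM with WT and 2.72 and 3.46 RPKM with Act.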

How the results depend on the processing

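Inhba was higher and Serpina3b lower in Act NS under all 19 alternatives. Their adjusted p ran from 0.00494 to 0.0895 and from 0.00114 to 0.125, with 13 and 15 alternatives under 0.05. The number of genes called, 2 as reported, was 2 with a pseudocount of 0.1 or 1 or quantile normalization, 3 with median-ratio scaling, 8 without a filter on low values, 1 with the stricter filter of 5 RPKM, 4 without the trend or with array weights, 0 with NS libraries only (402 genes at an unadjusted p under 0.05), 10 with the replicate block and NS libraries only, 9 with median-ratio scaling added (the scaled block was added once the data had been seen) and 11 without both NS libraries numbered 1. Leaving out 1 library gave 0 to 7 genes: WT NS replicate 1 left out gave 7, WT NS replicate 2 gave 0 (1557 at an unadjusted p under 0.05), WT NS replicate 3 gave 0 (396), Act NS replicate 1 gave 4, Act NS replicate 2 gave 1 and Act NS replicate 3 gave 2 (limma). Inhba missed the threshold when the left-out library was the second or the third of WT NS or the second of Act NS (limma adjusted p = 0.0669, 0.0773 and 0.0656), with log2FC 3.30 with NS libraries only and with the replicate block and NS libraries only, and with 3.42 when median-ratio scaling was added, and its values without 1 library ran from 2.98 to 3.64. Serpina3b missed it at -2.52 with the stricter filter and with NS libraries only, also when the second or the third of WT NS was left out (limma adjusted p = 0.0594 and 0.0773), and ran from -2.76 to -2.27 without 1 library. Genes with an interaction, 0 as reported, were 1 without a filter and with array weights, 2 without both libraries numbered 1, and 0 to 2 without 1 library. The block over all 11 libraries called 3 genes, Inhba, Serpina3b and Serpina3j. The keratin gene Krt24, not called as reported, was called with median-ratio scaling, without a filter, without the trend and with array weights. It was also called without Act NS replicate 1 and without both NS libraries numbered 1. Fits with libraries left out also called 2300005B03Rik, Awat1, Cyp2g1, Pnpla5 and Scd3, of which Scd3 met the minimum through WT NS alone. Whether the minimum shaped the other calls was not tested. The median log2FC of the keratinocyte lists, 0.41 as reported, ran from -0.05 to 1.00 without 1 library. Genes at an unadjusted p under 0.05, 809 as reported, were 1680 without a filter, 449 with the stricter filter, 1529 with array weights, 402 with NS libraries only, 1332 with the block and 396 to 1557 without 1 library. The cause of these moves was not tested.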

Other observations

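Most genes had a log2FC below 0 as deposited, with 2992 of 11575 above 0, and the lists of energy and lipid metabolism are given against that. Of the 13 protein genes of the mitochondrial genome, 12 had a log2FC below 0, with a median of -0.34 against -0.11 over all genes, -0.20 after median-ratio scaling and -0.18 without Act NS replicate 1. None passed. At an unadjusted p under 0.05, 6 were lower as deposited, beside 6.19% of all genes, and 3 after scaling, beside 2.32%. Their summed RPKM was 13638, 17004 and 15813 in WT NS and 10763, 12189 and 13404 in Act NS, without overlap. mt-Atp6, which encodes a subunit of ATP synthase, was 2874, 3385 and 3445 RPKM in WT NS and 2096, 2197 and 2553 in Act NS. Of 78 tested nuclear genes of oxidative phosphorylation, 75 were below 0, with a median of -0.19 as deposited and -0.05 after scaling, so that 21 were then above 0, and -0.07 without Act NS replicate 1. Ndufa12, a subunit gene of complex I, was 5.74, 6.91 and 8.98 RPKM in WT NS and 3.73, 4.2 and 5.48 in Act NS.

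Of 21 cholesterol synthesis genes, 20 were below 0, with a median of -0.38. After median-ratio scaling the median was -0.24, with 1 of the 21 above 0. At an unadjusted p under 0.05, 1 was lower unpaired and 10 paired, beside 6.19% and 9.11% of all genes (limma). Without Act NS replicate 1 the median of the list was -0.03, against -0.04 for all genes. The hair follicle and sebaceous list had 3 of 7 tested genes above 0 and a median of -0.08, and Scd3 was its lowest. This median hides single members, since Far2, at -1.44, passed in the paired fit. Of the 7, 2 were lower without overlap, beside 8.07% of all genes. Scd3, a stearoyl-CoA desaturase of sebocytes, was 0.788, 3.29 and 1.83 RPKM in WT NS and 0.0361, 0.0837 and 0.314 in Act NS (it met the minimum of 1 RPKM through WT NS alone, so no test is given), and its relative Scd1 was 75.7, 132 and 146 RPKM against 28.6, 68.5 and 68.6. Whether sebaceous cells took part in these values was not tested.

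None of the markers of Schwann, endothelial, immune or mural cells passed. S100b, a Schwann cell marker, was 0.668, 0.614 and 0.453 RPKM in WT NS and 1.49, 1.54 and 1.09 in Act NS and met the minimum through Act NS alone, while the other 4 tested Schwann cell genes were below 0 and the list had a median of -0.14. Xist was between 22.9 and 42.3 RPKM in every NS library. The papillary, reticular and dermal papilla fibroblast lists had medians of -0.08, -0.19 and 0.07, and the adipocyte lineage list -0.12. The immediate-early and dissociation-response list had a median of -0.14 over 32 genes, proliferation genes 0.01, chemokines 0.06, clock genes -0.05 and ribosomal protein genes -0.13. Without Act NS replicate 1 the medians were 0.45 for chemokines, 0.19 for proliferation genes and 0.04 for ribosomal protein genes, against -0.04 for all genes. Haemoglobin genes summed to 37.8, 9.11 and 13.9 RPKM in WT NS and 6.01, 11.2 and 6.77 in Act NS.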
